A study of Mus musculus with 10 samples.

Results

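The 47 genes described here encode the machinery that copies DNA and the enzymes that supply its building blocks. They were chosen as a list of names and comprise origin licensing and helicase genes, the sliding clamp and its loaders, DNA polymerases and primase, single strand binding and Okazaki fragment genes, nucleotide synthesis enzymes, chromatin assembly genes, and cyclin E and E2F genes. Of 19556 genes with a probe set of 1 symbol, all 47 had one, and all 47 were among the 17170 genes that passed a filter on low values and were tested. The cells were human breast cancer cells, called estrogen receptor positive in the study's title, grown as xenografts in female nu/nu mice of 20 weeks and taken from frozen sections by laser capture. Every mouse received an estrogen pellet. In the groups marked E the pellet stayed, and in the groups marked EWD (estrogen withdrawn) it was removed for 1 week. Axillary lymph node metastases came from 3 E mice (6, 11 and 14) and 3 EWD mice (9, 10 and 19), and primary mammary gland tumors from 2 E mice (11 and 14) and 2 EWD mice (10 and 19), so 4 of the 6 mice gave both sites. The nu/nu host lacks most T cells and keeps other immune cells, and the cell line was not given in the sources used here.

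A cell copies its genome once per cycle. In G1 the origin recognition complex (ORC), CDC6 and CDT1 load the MCM helicase onto origins, and in S phase the kinase CDC7 with DBF4, together with CDC45 and GINS, switches that helicase on. Polymerase alpha and primase start each strand, the RFC complex loads the PCNA clamp, polymerases delta and epsilon extend, RPA coats single strands, and FEN1, RNase H2 and DNA ligase I join the lagging strand. E2F1 and E2F2 are transcription factors that drive many of these genes at the G1/S boundary, and the cyclins CCNE1 and CCNE2 activate the kinase of that step. In estrogen receptor positive breast cancer cells, estrogen is known for moving cells from G1 into S phase, and transcripts of these genes are commonly read as a sign of cycling cells. An array of captured cells reads the average of a section, so fewer cycling cells and less RNA of these genes per cell cannot be told apart.

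Each array gave the authors' log2 signal, and every value below is a log2 signal or a difference between 2 of them, where a difference of 1 is a doubling of signal. Signals of different genes come from different probes and are not compared. The arrays of the 2 E primary tumors had a compressed range, with 99th percentiles of 9.44 and 10.04 against 11.39 to 11.67 on the other 8, so each result is given as deposited and again after quantile normalization, which gives all arrays the same distribution. The mean of the hybridization controls also split the arrays, lying from 9.47 to 10.59 on 6 of them and from 12.04 to 12.47 on the lymph node arrays of E mouse 11 and EWD mouse 19 and both EWD primary tumors. In the primary tumors this split and the pellet cannot be told apart. The 3′ over 5′ difference of the ACTB control probe sets was 4.27 and 4.49 in the E primary tumors and 5.40 to 6.63 elsewhere. That of GAPDH was 5.87 in the EWD primary tumor of mouse 19, 4.62 in that of mouse 10 and 3.15 to 4.39 on the other 8 arrays. Luminal epithelial markers had array means of 8.15 and 8.37 in the E primary tumors and 9.21 to 10.59 on the other arrays. The 9 measured leukocyte markers averaged 2.69 to 3.09 over all arrays and the 8 stroma and vessel markers 3.12 to 3.64. The 5 fat and muscle markers averaged 2.27 to 2.48. These averages lay near the 2.311 at which a gene passed the filter, and the general leukocyte marker PTPRC did not exceed 2.54. The probe sets were human while the host was a mouse. How well they read host cells was not tested, so low values do not show that host cells were absent. Single markers in these lists lay higher: the collagen gene COL1A1 read 6.33 to 7.54, the B cell marker CD79A 3.73 to 6.52 and the collagen gene COL3A1 2.43 to 5.23 over the arrays. COL3A1 was called lower in the E lymph node than in the E primary tumor, at −1.90 ± 0.47 (limma adjusted p = 0.0412), and stood at −2.16 after normalization (limma adjusted p = 0.1001). What these differences contribute to the results was not tested.

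**Figure D1:**
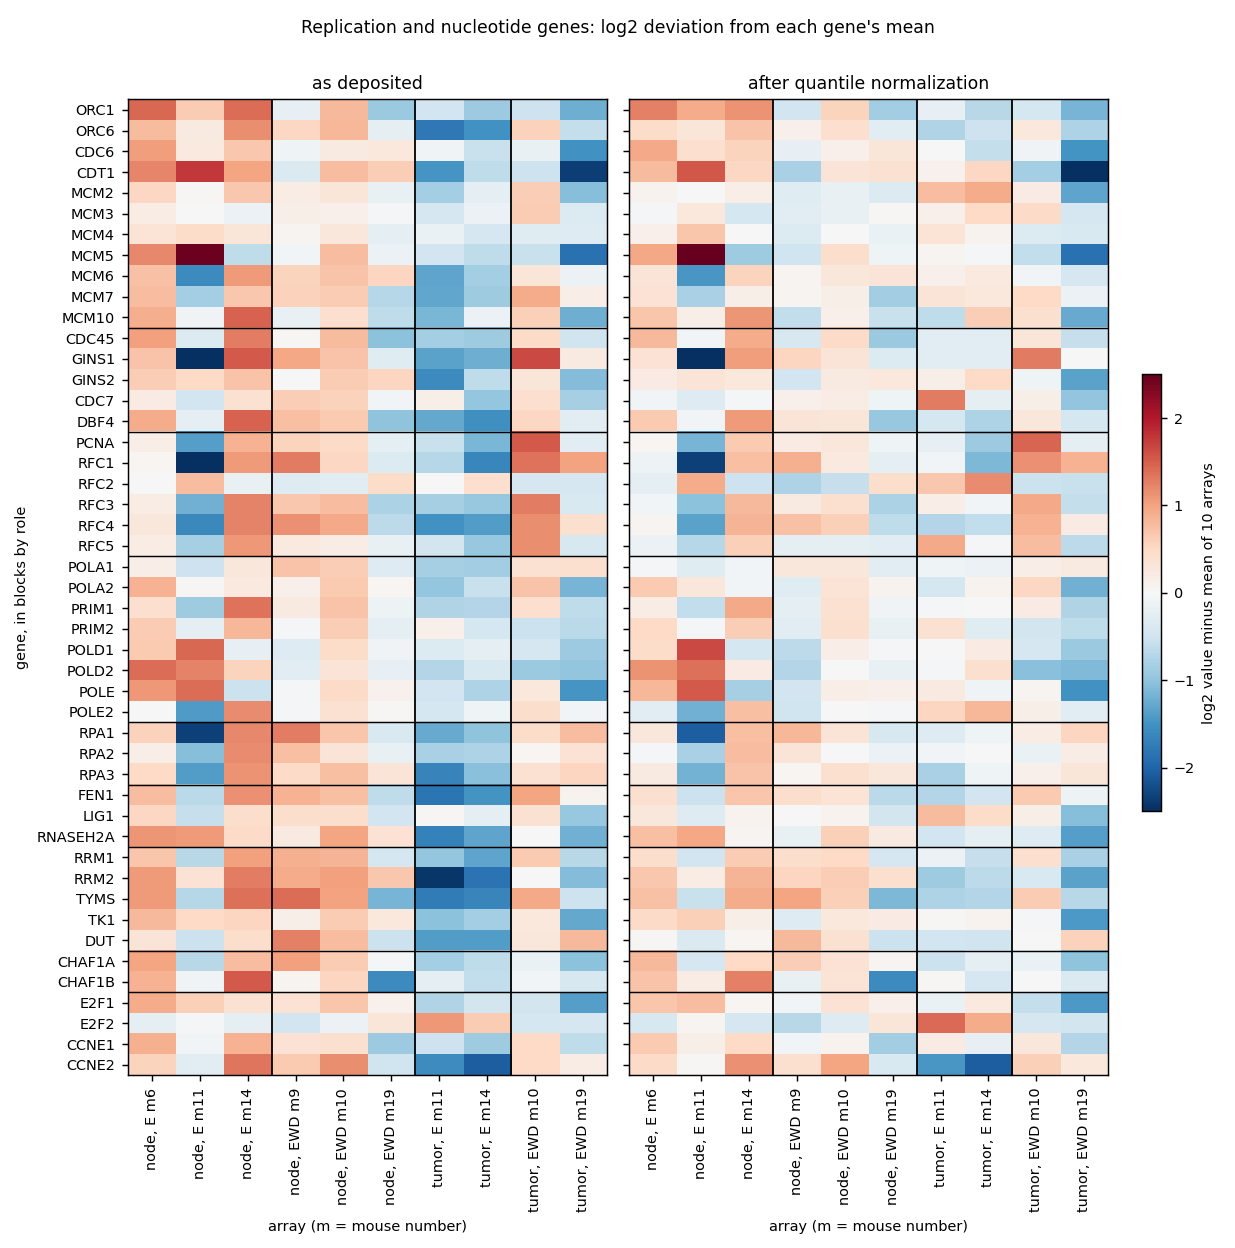
Deviation of each of the 47 genes (rows, in blocks by role) from its own mean over 10 arrays (columns), in log2 units, as deposited on the left and after quantile normalization on the right. As deposited the 2 E primary tumor columns are mostly blue. After normalization the primary tumor of EWD mouse 19 is lower than that of mouse 10 for 42 genes, and the E node of mouse 11 lower than the mean of the other E nodes for 34.

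The first comparison set lymph node metastases against primary tumors in mice that kept the pellet, and asks which replication genes differed by site under the same hormone. As deposited, 45 of the 47 genes had the higher mean in the lymph node, with a median difference of 1.19 beside 0.260 over all genes tested. The limma fit called 7 genes higher (Benjamini-Hochberg adjusted p below 0.05 over all genes tested) and none lower, where 7.81% of all genes were called higher and 0.949% lower. After quantile normalization 32 of 47 had the higher mean, the median difference was 0.410 beside 0.024 over all genes, and no member was called, with 0.46% of all genes called in either direction. With mouse as a fixed effect in the 4 mice with both sites (paired within the animal) no gene was called, member or not. The member median there was 1.00. Genes of like signal also differed: as deposited the median over all genes at a mean signal of 6 to 8 was 0.79 (members 1.10), at 8 to 10 1.29 (members 1.44) and over 10 1.88 (members 2.05), and the 7624 genes under 4, with 1 member among them, had a median of −0.03. After normalization the medians at these 3 higher levels were 0.05 (members 0.31), 0.10 (members 0.37) and 0.20 (members 0.29). Leaving out the E node of mouse 11 gave 25 members called higher and 1 lower, beside 3850 of all genes. Leaving out that of mouse 6 gave 1, beside 394. The deposited member median was 1.23 or 1.18 without the E tumor of mouse 11 or 14, which leaves 1 E tumor. RRM2 was called in every fit that left out 1 node array.

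RRM2, the regulated small subunit of ribonucleotide reductase, which makes deoxyribonucleotides, showed the greatest difference of the members as deposited. Its signal was 12.15, 11.45 and 12.36 in the E lymph nodes of mice 6, 11 and 14, and 8.66 and 9.25 in the E primary tumors of mice 11 and 14. The groups did not overlap and the difference was 3.04 ± 0.40 (SE, n = 3 and 2, limma adjusted p = 0.00679). After quantile normalization the node values were 11.76, 11.26 and 11.92 and the tumor values 10.20 and 10.43, which still did not overlap, and the difference was 1.34 ± 0.33 (limma adjusted p = 0.140). The other nucleotide genes followed with differences of 1.48 to 2.28 as deposited and 0.35 to 1.13 after normalization. These were RRM1, the large reductase subunit, TYMS and TK1, which make and salvage thymidylate, and DUT, which removes dUTP. All 5 nucleotide genes had groups that did not overlap as deposited with the probe set used. The second probe set of DUT overlapped, at 6.37, 4.51 and 7.65 in the nodes and 6.07 and 5.78 in the tumors. That of TYMS, with a mean of 4.78, also overlapped, at 5.37, 4.20 and 5.66 beside 4.91 and 3.61. The other probe sets of RRM2 and TK1 did not overlap, and those left for RRM1 and TYMS averaged 2.29 to 2.92. After normalization RRM1 overlapped, with the node of mouse 11 at 7.56 and its tumor at 7.89.

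Of the origin licensing genes, ORC6 and CDT1 were called. ORC6, the smallest ORC subunit, read 10.26, 9.69 and 10.62 in the E lymph nodes and 7.68 and 7.96 in the E primary tumors, a difference of 2.37 ± 0.46 (limma adjusted p = 0.0167) that became 1.14 ± 0.35 after normalization (limma adjusted p = 0.236). Its call was lost without the E node of mouse 6 or either E tumor (limma adjusted p of 0.0695, 0.0862 and 0.0543). CDT1, the MCM loading factor, read 11.50, 12.05 and 11.26 in the nodes and 8.80 and 9.63 in the tumors, 2.39 ± 0.58 apart (limma adjusted p = 0.0396), and its call was lost in 5 of 10 fits that left out 1 array, namely the E node of mouse 6, the EWD node of mouse 10 or 19, or either E tumor (limma adjusted p of 0.0588 to 0.213). Its groups met after normalization, where the node of mouse 14 and the tumor of mouse 14 both read 10.81. The second probe set of CDT1 averaged 5.85, and its groups overlapped as deposited. It read 6.31, 6.70 and 5.30 in the nodes and 6.12 and 5.75 in the tumors. ORC1, the ATP-binding ORC subunit, was not called, at 1.86 as deposited and 1.56 after normalization, with no overlap on either scale. All 11 genes of the licensing block, which here also holds the replication initiation factor MCM10, had a positive difference as deposited. After normalization 7 had one, and MCM2, a subunit of the helicase ring, turned to −0.76 with no overlap.

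**Figure D2:**
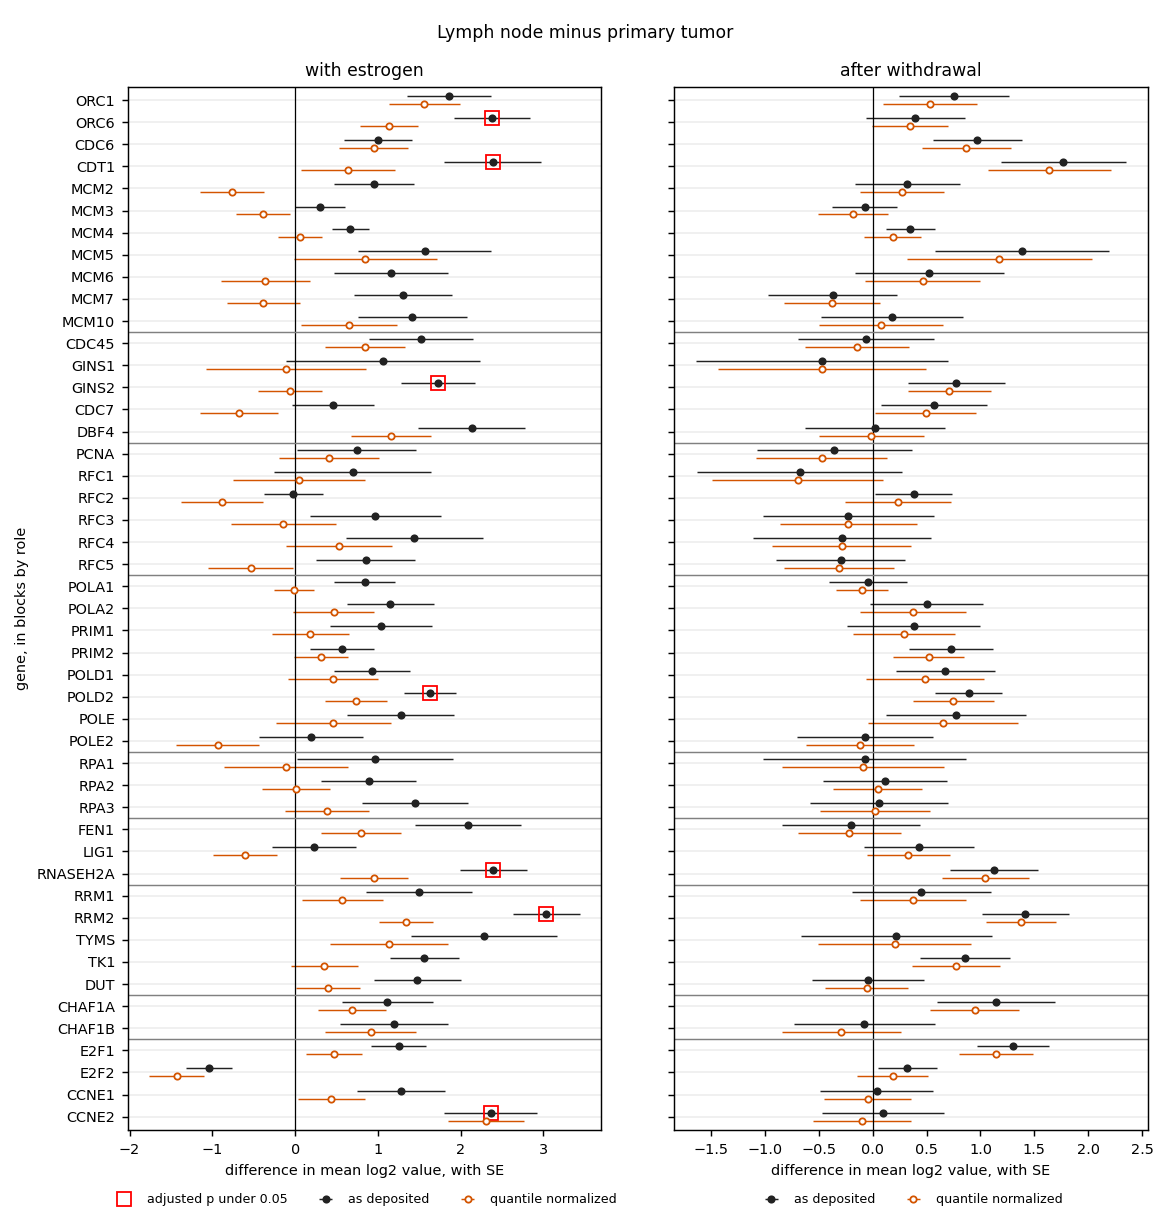
Lymph node minus primary tumor for each gene (rows), in log2 units with the standard error of the limma fit, with estrogen on the left (3 against 2 arrays) and after withdrawal on the right (3 against 2). Filled points are as deposited and open points after quantile normalization, and red squares mark the 7 genes with an adjusted p below 0.05. With estrogen most open points lie to the left of the filled ones, and after withdrawal the 2 scales nearly coincide.

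RNASEH2A, the catalytic subunit of RNase H2, which cuts RNA primers out of DNA, was called at 2.40 ± 0.41 (limma adjusted p = 0.0117). It read 10.94, 10.91 and 10.32 in the E lymph nodes and 8.14 and 8.52 in the E primary tumors, and the gap was 0.95 ± 0.41 after normalization (limma adjusted p = 0.394). Its call was lost without the E node of mouse 6 or the E tumor of mouse 11 (limma adjusted p of 0.0550 and 0.0812), and so was that of POLD2 (0.0714 and 0.123). POLD2, an accessory subunit of polymerase delta, read 8.81, 8.66 and 7.98 in the nodes and 6.69 and 7.04 in the tumors, 1.62 ± 0.31 apart (limma adjusted p = 0.0166). After normalization the node of mouse 14, at 7.63, fell inside the tumor range of 7.38 to 7.83, so that these groups overlapped. GINS2, a subunit of the GINS helicase cofactor, read 11.44, 11.32 and 11.54 in the nodes and 9.24 and 10.19 in the tumors, a difference of 1.72 ± 0.45 (limma adjusted p = 0.0490). After normalization its difference was −0.06 ± 0.39, so its direction did not hold across scales. As deposited its call held only without the E node of mouse 11 or either EWD tumor, of the 10 arrays left out in turn.

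CCNE2, a cyclin E, activates the G1/S kinase, and its difference was nearly the same on both scales. It read 5.37, 4.56 and 6.16 in the E lymph nodes and 3.25 and 2.76 in the E primary tumors, a difference of 2.36 ± 0.57 (limma adjusted p = 0.0370) as deposited and 2.31 ± 0.46 (limma adjusted p = 0.0844) after normalization. As deposited its call held only without the E node of mouse 11 or the EWD node of mouse 10 or 19, of the 10 arrays left out in turn. Its second probe set averaged 2.12, below the filter, and its difference had the other sign. E2F2 ran the other way: 4.08, 4.27 and 4.08 in the nodes and 5.40 and 4.97 in the tumors, −1.04 ± 0.27 as deposited (limma adjusted p = 0.0511) and −1.43 ± 0.33 after normalization (limma adjusted p = 0.121). With the probe sets used, it was the only member whose E nodes all lay below both E tumors as deposited. MCM2 and LIG1, which seals nicks, joined it after normalization. The other probe sets of E2F2 overlapped between these groups as deposited. That with a mean of 4.09 read 4.59, 3.77 and 3.64 in the nodes and 4.33 and 4.55 in the tumors.

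In all, 27 members had E lymph nodes entirely above E primary tumors as deposited, beside 28% of all genes, and 1 lay entirely below, beside 9.98%. After normalization the counts were 12 above, beside 13.6% of all genes, and 3 below, beside 14.3%. The clamp, its loaders and RPA gave no such gene. As deposited PCNA and the 5 RFC genes differed by −0.02 to 1.44 and RPA1, RPA2 and RPA3 by 0.89 to 1.44. For all of them except RFC2 the node of mouse 11 reached into the range of the tumors or below it. RFC2 depended on the probe set. That averaging 6.34 lay entirely higher in the E nodes, at 6.93, 5.77 and 7.03 beside 5.69 and 5.58 in the tumors. Those averaging 6.25 and 6.08 overlapped. The chromatin assembly genes CHAF1A and CHAF1B, which deposit histones behind the fork, stood at 1.12 and 1.19 as deposited and 0.69 and 0.91 after normalization. Among the 4 arrays with low hybridization controls, 2 nodes and 2 tumors, 45 of 47 members were higher in the node. Their median was 1.62, beside 0.286 over all genes, of which 65.8% were higher. After normalization 34 members were higher with a median of 0.506, beside 51.6% of all genes with a median of 0.018.

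**Figure D3:**
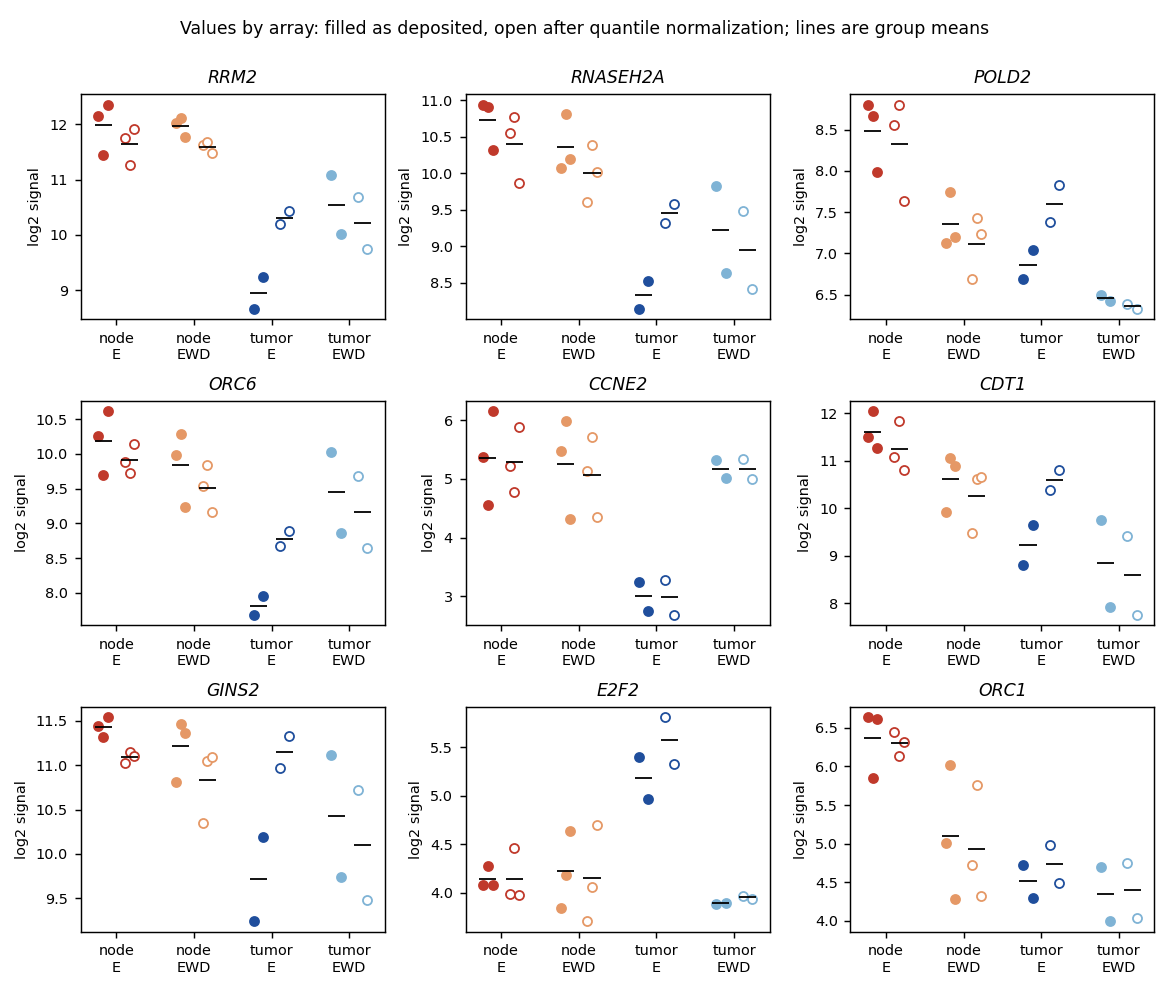
Log2 signal of 9 genes on each array, by site and pellet, with filled points as deposited, open points after quantile normalization and lines at the group means. RRM2, RNASEH2A, POLD2, ORC6, CCNE2, CDT1 and GINS2 are the 7 genes called between E lymph node and E primary tumor, E2F2 is the gene called between E and EWD primary tumors, and ORC1 was not called. The vertical axes differ between panels.

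In the primary tumors, E was compared with EWD to ask how the same genes stood when the hormone was removed. E2F2 was the 1 member called, and it was higher with estrogen. It read 5.40 and 4.97 in the E tumors of mice 11 and 14 and 3.89 and 3.90 in the EWD tumors of mice 10 and 19, with a difference of 1.29 ± 0.30 (SE, n = 2 and 2, limma adjusted p = 0.0361). After quantile normalization the difference was 1.60 ± 0.35 (limma adjusted p = 0.0637), and 3 of its 4 probe sets had the same sign. The call was lost without any 1 of the 4 tumors, the E node of mouse 6 or the EWD node of mouse 10 (limma adjusted p of 0.0644 to 0.151), and averaging its probe sets gave 0.50 (limma adjusted p = 0.215). The count of called members was 14 without the E node of mouse 11, beside 3564 of all genes. It was 3 without that of mouse 14, beside 1948, and 4 without the EWD node of mouse 19, beside 1520. With every array in the fit 0.879% of all genes were called higher and 6.94% lower. After normalization 1.34% were called in either direction, with no member among them.

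The remaining members depended on the scale. As deposited 35 of 47 had the lower mean with estrogen, with a median of −0.63 beside −0.10 over all genes, and after normalization 29 had the higher mean, with a median of 0.256 beside 0.058. Against genes of like signal the deposited medians lay closer: over all genes at a mean signal of 6 to 8 the median was −0.77 (members −0.39), at 8 to 10 it was −1.31 (members −1.43), and over 10 it was −1.90 (members −1.16). E tumors lay entirely below EWD tumors for 24 members as deposited, beside 38.3% of all genes, and entirely above for 5, beside 22.6%. After normalization 10 lay below, beside 26.8%, and 15 above, beside 31.1%. The deposited median was −0.05 without the EWD tumor of mouse 10 and −1.29 without that of mouse 19. These shares are set by 2 arrays against 2, and the 2 hybridization control levels coincide with the 2 groups.

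By role, the licensing genes went from 5 of 11 higher with estrogen as deposited to 10 of 11 after normalization, and the polymerase and primase genes from 3 of 8 to 7 of 8. CDT1 stood at 0.37 as deposited and 1.99 ± 0.61 after normalization (limma adjusted p = 0.118), and MCM2 at −0.31 and 1.40 ± 0.42 (limma adjusted p = 0.114). RPA1, RPA2 and RPA3 had the lower mean with estrogen on both scales, with differences of −1.75, −0.98 and −1.82 as deposited and −0.57, −0.05 and −0.69 after normalization, and none was called. CCNE2 kept a difference near −2 on both scales, reading 3.25 and 2.76 with estrogen and 5.33 and 5.01 after withdrawal, −2.16 ± 0.61 as deposited (limma adjusted p = 0.0643) and −2.19 ± 0.49 after normalization (limma adjusted p = 0.0659).

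After E2F2, the members with the greatest t values as deposited were RRM2, CCNE2 and DUT. RRM2 read 8.66 and 9.25 with estrogen and 11.09 and 10.01 after withdrawal, −1.60 ± 0.43 (limma adjusted p = 0.0593). DUT read 7.43 and 7.44 with estrogen and 9.12 and 9.66 after withdrawal, −1.94 ± 0.56 (limma adjusted p = 0.0685). Normalization brought RRM2 to 0.09 and DUT to −0.77, so the sign of RRM2 turned. With the probe sets used, the E and EWD values of cyclin E2 stayed apart on both scales while those of the reductase subunit did not. The second CCNE2 probe set, with a mean of 2.12 below the filter, ran the other way. It read 2.14 and 2.32 with estrogen and 1.92 and 1.98 after withdrawal.

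**Figure D4:**
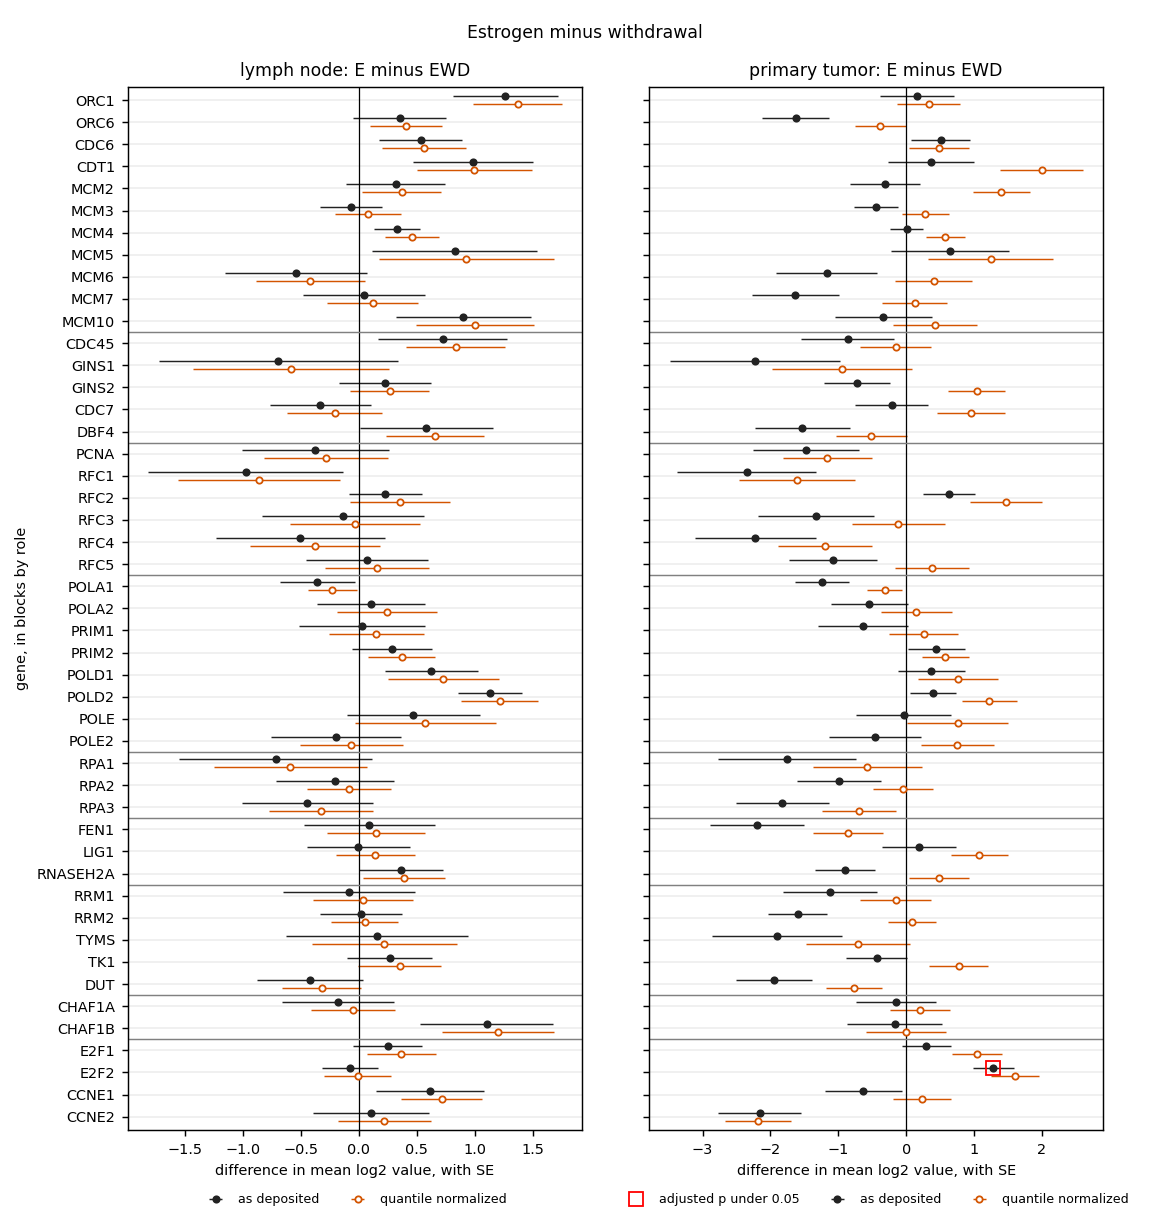
E minus EWD for each gene (rows), in log2 units with the standard error of the limma fit, in lymph nodes on the left (3 against 3 arrays) and primary tumors on the right (2 against 2). Filled points are as deposited and open points after quantile normalization, and the red square marks E2F2 in the primary tumors. In the lymph nodes the scales nearly coincide, and in the primary tumors they part, GINS2 moving from −0.72 to 1.04.

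In the lymph nodes the same question was asked with 3 E and 3 EWD mice. No member was called on either scale, and neither was any gene of the 17170 (0% on both scales). Of the 47 members 29 had the higher mean with estrogen as deposited, with a median of 0.103 beside −0.02 over all genes, and 32 after normalization, with a median of 0.218 beside 0.020. The deposited median turned to −0.03, −0.05 and −0.10 without the E node of mouse 6 or 14 or the EWD node of mouse 19, and it was 0.353 and 0.324 without the E node of mouse 11 or the EWD node of mouse 10. At an unadjusted p below 0.05 there were 2 members as deposited and 3 after normalization. Groups did not overlap for 3 members, all higher with estrogen, beside 4.47% of all genes, and for none lower, beside 5.46%. After normalization there were 8 higher, beside 5.47%, and none lower, beside 5.63%.

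The 3 members were POLD2, CDT1 and MCM4. POLD2 read 8.81, 8.66 and 7.98 with estrogen and 7.13, 7.74 and 7.21 after withdrawal, and its difference of 1.13 ± 0.28 had a limma adjusted p of 0.420. CDT1 read 11.50, 12.05 and 11.26 with estrogen and 9.92, 11.06 and 10.88 after withdrawal, 0.98 ± 0.51 apart (limma adjusted p = 0.910). Its second probe set overlapped as deposited, at 6.31, 6.70 and 5.30 with estrogen and 5.67, 5.61 and 6.275 after withdrawal. MCM4, a helicase subunit, lay 0.33 ± 0.20 apart, and only 2 of its 3 probe sets had the same sign. ORC1 read 6.64, 5.85 and 6.61 with estrogen and 5.01, 6.02 and 4.28 after withdrawal, a difference of 1.26 ± 0.45 (limma adjusted p = 0.749). The E node of mouse 11 and the EWD node of mouse 10 crossed, and after normalization the same groups did not overlap, at 1.36 ± 0.38 (limma adjusted p = 0.466). CHAF1B stood at 1.10 ± 0.58 (limma adjusted p = 0.910) with the EWD node of mouse 19 at 3.25, the lowest of all 10 arrays.

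The licensing genes had 9 of 11 differences above 0 as deposited and 10 of 11 after normalization, MCM6 being below 0 on both. RPA1, RPA2 and RPA3 had none above 0 on either scale, between −0.71 and −0.20 as deposited. The E node of mouse 11 read 6.40, 6.58 and 7.40 for RPA1, RPA2 and RPA3 and 8.225 for MCM6. In the same order the other E nodes read 9.30 and 9.92, 7.82 and 8.82, 9.29 and 9.91, and 10.56 and 10.88. On the low hybridization control arrays, without that node and the EWD node of mouse 19, the deposited differences were −0.10, 0.14, 0.19 and 0.26. PCNA and the RFC genes had 2 of 6 above 0 on both scales. The nucleotide genes lay near 0, from −0.42 for DUT to 0.27 for TK1 as deposited, and RRM2, at 0.02, read 12.15, 11.45 and 12.36 with estrogen and 12.02, 12.11 and 11.77 after withdrawal. Within the arrays of low hybridization controls (2 against 2) 37 members were higher with estrogen, beside 50.6% of all genes, with a median of 0.168. After normalization 41 were, beside 54.1%, with a median of 0.237. Within those of high controls (E mouse 11 against EWD mouse 19) 21 were, beside 45.0%, with a median of −0.01. After normalization 29 were, beside 49.5%, with a median of 0.137.

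Whether the estrogen response differed between the sites was tested as the difference of the 2 responses. No member was called on either scale, where 0.0116% of all genes were called as deposited and 0.00582% after normalization, and 6 members had an unadjusted p below 0.05 in the limma fit as deposited. As deposited 40 of 47 differences were positive, meaning a higher response to estrogen in the lymph node, with a median of 0.945 beside 0.154 over all genes. After normalization 21 were, with a median of −0.02 beside −0.02 over all genes. By signal level, the deposited median over all genes was 0.61 at 6 to 8 (members 0.66), 1.10 at 8 to 10 (members 1.23) and 1.78 over 10 (members 1.28). The deposited median was 0.269 without the EWD tumor of mouse 10 and 1.52 without that of mouse 19. Leaving out the E node of mouse 11 gave 4 called members, beside 1543 of all genes. E2F2 at −1.36 ± 0.39 (limma adjusted p = 0.226) and CCNE2 at 2.26 ± 0.80 (limma adjusted p = 0.335) were −1.62 and 2.40 after normalization. ORC6, at 1.98 ± 0.65 (limma adjusted p = 0.295), became 0.79, and RRM2, at 1.62 ± 0.57 (limma adjusted p = 0.333), became −0.04.

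After withdrawal the lymph nodes were again set against the primary tumors, here between arrays of like range. No member was called on either scale, and no gene was (0% on both). As deposited 32 of 47 had the higher mean in the node with a median of 0.323 beside 0.065 over all genes, and after normalization 29 with a median of 0.204 beside 0.012. The deposited median was −0.14 and 0.759 when the EWD tumor of mouse 19, with the highest GAPDH 3′ over 5′ difference of the 10 arrays, or that of mouse 10 was left out, and 0.560 and 0.158 when the node of mouse 19 or 10 was. Nodes lay entirely above tumors for 13 members, beside 20.8% of all genes, and after normalization for 10, beside 17.7%. None lay entirely below, beside 10.2% of all genes as deposited and 13.8% after normalization.

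The 4 members with the greatest t were E2F1, RRM2, CDT1 and POLD2. E2F1 read 7.46, 7.79 and 7.21 in the EWD nodes of mice 9, 10 and 19 and 6.64 and 5.73 in the EWD tumors of mice 10 and 19, 1.30 ± 0.33 apart (limma adjusted p = 0.255). RRM2 read 12.02, 12.11 and 11.77 in the nodes and 11.09 and 10.01 in the tumors, 1.42 ± 0.40 apart (limma adjusted p = 0.295), and 1.38 ± 0.33 after normalization. CDT1 read 9.92, 11.06 and 10.88 in the nodes and 9.75 and 7.92 in the tumors, 1.77 ± 0.58 apart (limma adjusted p = 0.357). POLD2 read 7.13, 7.74 and 7.21 in the nodes and 6.49 and 6.43 in the tumors, 0.89 ± 0.31 apart (limma adjusted p = 0.390). These groups did not overlap on either scale, and the EWD tumor of mouse 19 was the lowest array of these groups for each of the 4. The second probe set of RRM2, with a mean of 10.40, did overlap as deposited. It read 10.85, 11.08 and 10.67 in the nodes and 11.32 and 9.28 in the tumors. Within the arrays of high hybridization controls (1 node, 2 tumors), 20 of 47 members were higher in the node, beside 52.5% of all genes. Their median was −0.17. After normalization 24 were, beside 52.6%, with a median of 0.00048.

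The comparisons with estrogen and after withdrawal share no arrays, so their values for RRM2 rest on separate mice. On the quantile scale the RRM2 probe set used stood 1.34 above the tumor with estrogen and 1.38 after withdrawal. RNASEH2A stood 0.95 and 1.05 above, CDC6, which helps load the helicase, 0.95 and 0.87, and CHAF1A 0.69 and 0.95. DBF4 stood 1.16 above with estrogen and −0.01 after withdrawal. The lymph node minus tumor value of CCNE2 was 2.31 with estrogen and −0.10 after withdrawal, and that of E2F2 −1.43 and 0.18.

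In the 4 mice with both sites each gene could be read within an animal. As deposited the node exceeded the tumor for 32 members in mouse 11 and 45 in mouse 14, which kept the pellet, beside 57.8% and 60.9% of all genes. In the withdrawn mice 10 and 19 it did so for 33 and 30, beside 58.1% and 53.4%. After normalization the counts for mice 11, 14, 10 and 19 were 26, 31, 30 and 30, beside 49.5%, 49.7%, 52.0% and 53.7% of all genes. As deposited 16 members were higher in the node in all 4 mice, beside 16.6% of all genes. After normalization 7 were, beside 9.11%, and 1, MCM7, another helicase subunit, was lower in all 4, beside 6.53%. The 7 were ORC1, ORC6, CDC6, RNASEH2A, RRM2, TK1 and CHAF1A. For RRM2 the normalized node minus tumor values of mice 11, 14, 10 and 19 were 1.07, 1.496, 0.99 and 1.73. For RNASEH2A they were 1.44, 0.29, 0.91 and 1.60, and for ORC1 1.15, 1.82, 1.00 and 0.29. As deposited the second probe set of RRM2 was lower in the node of mouse 10, at 11.08 beside 11.32 in the tumor. It was higher in the nodes of mice 11, 14 and 19.

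**Figure D5:**
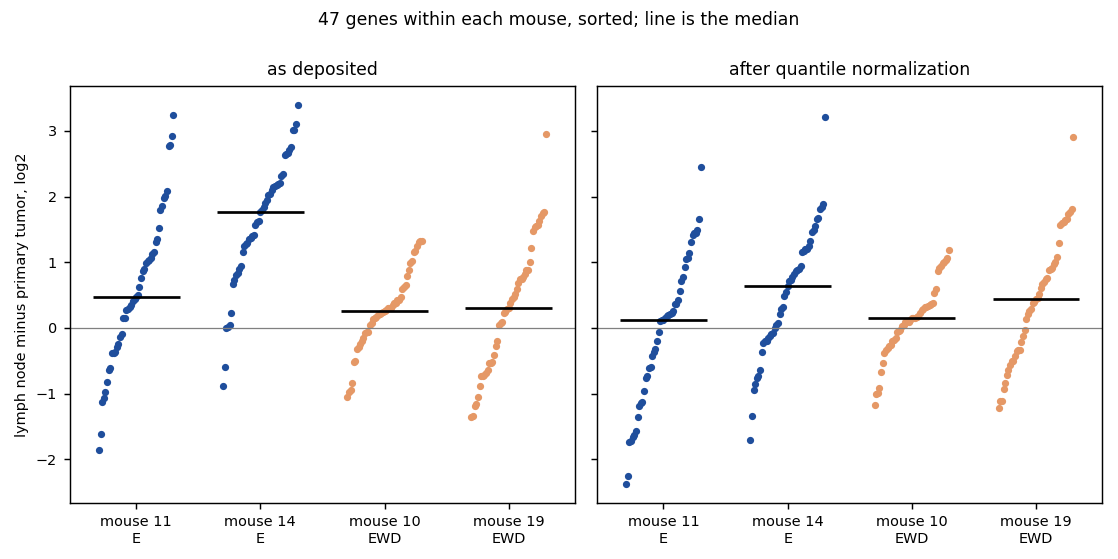
Lymph node minus primary tumor for the 47 genes within each of the 4 mice with both sites, in log2 units, sorted within a mouse, as deposited on the left and after quantile normalization on the right. Lines mark the medians, which run from 0.258 in mouse 10 to 1.76 in mouse 14 as deposited and from 0.127 in mouse 11 to 0.636 in mouse 14 after normalization.

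Arrays of 1 group also differed from one another across these genes. Against the mean of the nodes of mice 6 and 14, the E lymph node of mouse 11 was lower for 38 members with a median of −0.98, and for 34 after normalization with a median of −0.58. Its departures ran both ways: after normalization GINS1, a GINS subunit, stood −3.37 from the other E nodes, RFC1, the large clamp loader subunit, −2.65, and RPA1, the large RPA subunit, −2.57, while MCM5, a helicase subunit, stood 2.50 above them. The EWD lymph node of mouse 19 was lower than the other EWD nodes for 42 members, and for 31 after normalization. The EWD primary tumor of mouse 19 was lower than that of mouse 10 for 40 members as deposited and 42 after normalization, with a median of −0.88 on the normalized scale, where 49.5% of all genes were higher. This is the array with the GAPDH 3′ over 5′ difference of 5.87. POLA2, a polymerase alpha subunit, stood −1.72 there, PCNA −1.70 and CDT1 −1.68. Both nodes singled out here have high hybridization controls, and so do both EWD primary tumors, and the part that this and the GAPDH difference play was not tested.

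The members moved together only in part. On the normalized scale the median correlation between 2 members over the 10 arrays was 0.293 and 70.2% of the pairs were above 0, while as deposited the median was 0.596. The correlations are descriptions over 10 arrays that share mice, sites and array range. RRM1, CDC45, which joins the active helicase, CCNE1 and PRIM1, the primase catalytic subunit, were closest to the mean of the other members, at 0.867, 0.856, 0.850 and 0.835. RFC2, a clamp loader subunit, at −0.284, and E2F2, at −0.242, were the farthest. The RFC2 value rests on 1 of its 4 probe sets, with a mean of 6.72. Those averaging 6.34 and 6.25 correlated with it at −0.253 and −0.161, and that averaging 6.08 at 0.756. The order depended on the arrays: without both E primary tumors and the E node of mouse 11, ORC6, LIG1, RRM1 and MCM10, a replication initiation factor, were closest, at 0.991, 0.948, 0.934 and 0.931, and E2F2, DUT and RFC2 farthest, at −0.206, −0.205 and −0.181. Of all tested genes outside the list, those most like the members' mean on the normalized scale were KIF20A (r = 0.967) and DLGAP5 (0.952), both known for roles in mitosis, TMEM177 (0.938), TMEM45A (0.929), ELOVL6 (0.929), which lengthens fatty acids, DANCR (0.925), a non-coding RNA, ODC1 (0.923), the first enzyme of polyamine synthesis, ANP32E (0.919), a histone chaperone, PRMT5 (0.911), an arginine methyltransferase, and HSPA4 (0.911), a heat shock protein, each over 10 arrays.

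Further replication genes that are not members gave the same dependence on scale. Of 38 tested genes on that list, 7 were called higher in the E lymph node than in the E primary tumor as deposited, among them TOP1, the topoisomerase that relieves twist ahead of the fork, at 2.14 ± 0.39 (limma adjusted p = 0.0136) and the histone chaperone ASF1A at 2.45 ± 0.47 (limma adjusted p = 0.0166). In the primary tumors 4 of the 38 were called lower with estrogen, namely TOP1, ASF1A, POLE4, an accessory subunit of polymerase epsilon, and DNMT1, which copies DNA methylation. Of 24 cell cycle regulators, 3 were called higher and 1 lower in the E node than in the E tumor, and of 17 mitotic genes 4 were called higher and none lower. Over all genes these shares were 7.81% higher and 0.949% lower. In the primary tumors 3 regulators were called lower with estrogen and none higher, and no mitotic gene was called, beside 6.94% lower and 0.879% higher over all genes. The 3 were the G1 kinase CDK6 at −4.13 ± 0.93 (limma adjusted p = 0.0340), the pocket protein RBL2 at −3.14 ± 0.75 (limma adjusted p = 0.0403) and the kinase inhibitor CDKN1B at −2.90 ± 0.73 (limma adjusted p = 0.0477). After quantile normalization none of these lists held a call in either comparison.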

How the data were processed

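Gene expression was measured on human 3′ expression arrays, 1 per captured tissue, in 10 samples of 6 mice. The values were the authors' deposited log2 signal of 61359 probe sets, made with Partek and RMA per the submitters' processing notes, which give no version. Gene symbols came from the annotation of the array platform, which gave 44532 probe sets 1 symbol and 1492 several. Each gene was represented by its single-symbol probe set with the highest mean, and genes were kept at or above the 25th percentile of probe set means (2.311), which left 17170. The members had 94 such probe sets, and 30 members had several. The captured cells' RNA was PCR amplified, per the labels' protocols, which adds noise and can favor 3′ ends. Arrays give no counts, so their number limits the precision.

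Tests used limma 3.58.1 in R 4.3.3 with 4 group means in a single fit of 10 arrays, blocking on mouse as a random effect (consensus correlation −0.0415, −0.0566 after quantile normalization), with Benjamini-Hochberg adjustment over all 17170 genes and a call at 0.05. The pairing comes from the animal. The correlations of the paired arrays' deviations from their group means were 0.176 (mouse 10), −0.208 (11), −0.210 (14) and 0.0831 (19). Alternatives were quantile normalization, scaling by interquartile range, other filters, averaged probe sets, the fit without the block, mouse as a fixed effect, a robust prior, the hybridization control mean (18 probe sets) as a covariate, fits of only the 2 groups compared, and each array left out. The comparisons within hybridization control levels were added after seeing the data. The fit was run on simulated data with changes added to the E lymph nodes and independent noise on each array. That simulation held no compressed range, shared mouse or hybridization control split, so it does not check the calls between the sites. The members and lists were chosen with earlier results of these data known. Named were called members, the 4 with the greatest absolute t in each comparison, up to 5 with groups that did not overlap, and 1 or more per role. Others, named to describe a role, an array or both scales, were chosen after seeing their values.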

Additional observations from a re-analysis of the deposited data

How the results depend on the processing

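With estrogen, lymph node against primary tumor, 7 members were called as deposited, beside 1341 of all genes higher and 163 lower. The count was 0 after quantile normalization, beside 79 of all genes, and 0 after interquartile range scaling, beside 78. It was 4 with averaged probe sets, beside 843, and 26 with the hybridization control covariate, beside 4982. With only the 2 groups in the fit it was 0, beside 0 of all genes, and so with mouse as a fixed replicate block. It was 10 with no replicate block, beside 1593, and 1 to 26 with 1 node array left out, beside 394 to 3850. The median of 1.19 was 0.410 after quantile normalization and 0.973 to 1.62 with 1 array left out. In the primary tumors the 1 call became 0 after quantile normalization, beside 230 of all genes. It also became 0 with averaged probe sets, beside 694, and with the robust prior, beside 1315. The count was 6 after interquartile range scaling, beside 1895, 23 with the covariate, beside 5994, and 14 with only the 2 groups, beside 3685. With 1 node array left out it was 0 to 14, beside 520 to 3564. The median of −0.63 was 0.256 after quantile normalization, −1.54 with the covariate and −1.29 to −0.0513 with 1 array left out. For the difference of responses the 0 calls became 21 with the covariate, beside 4049 of all genes. With 1 node array left out they became 0 to 4, beside 0 to 1543. The median of 0.945 became −0.018 after quantile normalization, 1.69 with the covariate and 0.269 to 1.52 with 1 array left out. After withdrawal the 0 calls became 6 with the covariate, beside 2276 of all genes. The median of 0.323 became −0.24 after interquartile range scaling and −0.15 with the covariate. It was −0.17 within the arrays of high hybridization controls and −0.14 to 0.759 with 1 array left out. In the lymph nodes no setting gave a called member, while up to 9 of all genes were called. The median of 0.103 was −0.0148 within the arrays of high hybridization controls and −0.10 to 0.353 with 1 array left out. After quantile normalization the sign turned for 13 members with estrogen between the sites (GINS2 to −0.0611 and MCM2 to −0.76 among them), 17 in the primary tumors (RRM2 to 0.0886, MCM2 to 1.40 and GINS2 to 1.04 among them), 19 in the difference of responses (RRM2 to −0.0373 among them), 3 after withdrawal and 3 in the lymph nodes. Without the block no other count of called members changed. Causes were not tested. The number of arrays, 2 or 3 a group, limits all of these values.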
